A study of Homo sapiens with 8 samples.

Results

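The sites described here are YTHDF2 binding positions in protein-coding genes that span 300 kb or more of the genome. They were chosen by gene span alone, as distinct positions inside exactly 1 protein-coding gene and on its strand, and 1238 such positions in 218 genes met the rule, of 37613 distinct positions in the list and 35727 that could be assigned to 1 gene in this way. YTHDF2 was mapped by iCLIP2, in which ultraviolet light links a protein to the RNA it touches and reverse transcription stops at the linked nucleotide. The study used HEK293T, an established line from human embryonic kidney labelled as wild type, and its 2 groups of 4 libraries were cells given 20 µM STM2457, an inhibitor of the m6A methyltransferase METTL3, in 0.2% DMSO, or 0.2% DMSO alone, each for 12 h. The list has 1 score per row and 0 columns for single libraries, so the treatments could not be compared, there is no error between replicates and the depth behind each site is unknown. All comparisons below are therefore between sites and genes, and are given as counts and medians without a test.

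N6-methyladenosine (m6A) is added to pre-mRNA in the nucleus at adenosines within the DRACH motif, and YTHDF2 is a cytoplasmic reader of it that recruits the deadenylation machinery. Very long genes owe their span to introns, which are removed before an mRNA reaches the cytoplasm, so a genomic distance between sites can be longer than their distance in the mRNA. Methylation of mRNA is known to be frequent in long internal exons and around stop codons. Many of the longest human genes encode adhesion molecules, channels and receptors of neurons.

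The reference tables used here hold bases at 2 of the 1238 positions, and both are shown because they show what a listed position is. Each stretch is 29 nt of RefSeq sequence (GRCh38.p14, minus strand, 5′ to 3′) with the listed position at its centre, and capitals mark the 5 letters around that position. Both lie in genes of the X chromosome, TENM1, a teneurin adhesion receptor, at chrX:124380854-124380882, and HS6ST2, a heparan sulphate sulphotransferase, at chrX:132957304-132957332.
TENM1: tgttgaatgggaGGACTagacggtttgca
HS6ST2: ccccagcgtcggGAACAtggatgagaaat

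In both, the listed nucleotide was the A of a DRACH motif, spelled as A, G or T, then A or G, then AC, then A, C or T. The TENM1 position (124380868) had a score of 1.74 and the HS6ST2 position (132957318) a score of 2.22, both below the median. The same reading over the whole list was possible at 250 positions, wherever the table of gene starts covered 14 nt on each side. All 250 were adenosines, all 250 were preceded by the first 2 letters of the motif and followed by C, and 212 (84.8%) had the full DRACH. GGACT stood in the middle of 37 of them. On both strands of the same table, 1.84% of bases were the A of the first 4 motif letters and 1.55% the A of DRACH, and 32.4% of 29 nt stretches held DRACH anywhere. Neighbouring positions on a strand were nowhere closer than 4 nt in the whole list, with 155 pairs at that distance, 8 of them in genes of 300 kb or more. The 4 motif letters cannot recur at a shorter distance. The sources used here do not say how the authors placed the positions, so the motif at a listed position is a property of the list and is not given as a result of binding.

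Genes of 300 kb or more carried a site less often than genes of middle length, but had about as many sites when they carried any. A site was present in 218 of 769 such genes (28.3%), against 37.2% of all 19945 protein-coding genes. The share was 24.8% in genes under 10 kb, 38.5% at 10 to 30 kb, 46.1% at 30 to 100 kb and 45.8% at 100 to 300 kb. The median number of sites per gene with a site was 3 (quartiles 2 and 7) at 300 kb or more, 4 (2 and 8) at 100 to 300 kb and 3 over all genes. Sites per Mb, over the summed span of the genes with a site, were fewer in each longer class. They fell from 728 under 10 kb to 37.6 at 100 to 300 kb and 11.01 at 300 kb or more. Span is the divisor here, so where site counts per gene are alike the value must fall as span grows. Expression was not measured in these files, so genes that were not transcribed cannot be told apart from genes without binding.

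**Figure D1:**
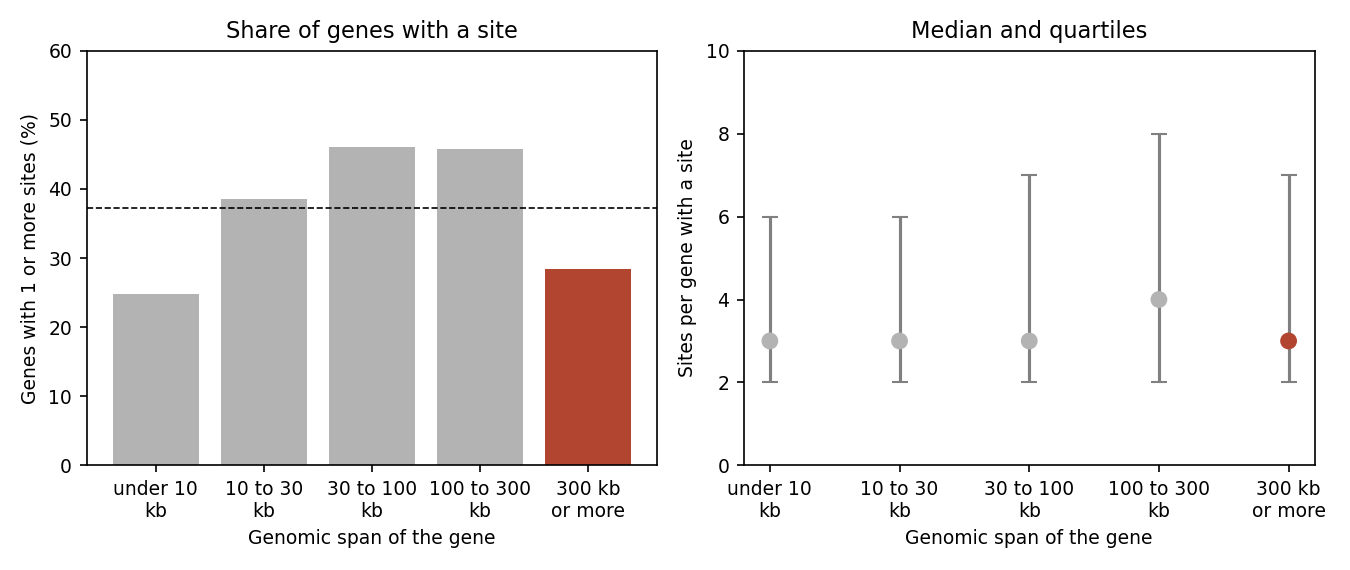
Left, bars give the percent of protein-coding genes with 1 or more YTHDF2 sites in 5 classes of genomic span, with a dashed line at 37.2% for all genes; right, points give the median number of sites per gene with a site and bars its quartiles. The share was 28.3% in the longest class, below the 45.8% of the class before it, while the medians lay between 3 and 4.

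Sites were unevenly shared among the 218 genes. A single site was found in 51 of them, and 37 genes (17.0%) had 10 or more. That share was 12.4% of all genes with a site and 19.7% of those of 100 to 300 kb. The 37 genes held 652 of the 1238 sites (52.7%), and the 10 genes with the most held 294 (23.7%). In the class of 100 to 300 kb, genes with 10 or more sites held 52.6% of the sites, so that share was not particular to the longest class. At the limit of the class, COBL, which nucleates actin filaments, spans 301 kb and had 2 sites, and KMT2C spans 301 kb and had 41. Just below the limit were HSD17B12, an enzyme of fatty acid elongation, at 299.9 kb with 3 sites and KIAA1549L at 298 kb with 7.

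The 10 genes of 300 kb or more with the most sites had 24 to 41 sites each and encode proteins of differing function. KMT2C, a histone H3 lysine 4 methyltransferase, had 41 sites over 112 kb on chromosome 7 (minus strand), and 20 of them lay within 8.21 kb from 152174164 to 152182376. Its scores reached 72.1, with a median of 4.96. MACF1, a spectraplakin that crosslinks microtubules and actin, had 40 sites on chromosome 1 (plus strand) over 87.2 kb of its 403 kb, with 22 between 39409963 and 39414331. DST, the other spectraplakin of the class, had 27 sites on chromosome 6 (minus strand) over 385 kb, and its densest 10 kb held 10 of them. That distance includes a gap of 239 kb between a single site with a score of 1.60 and the other 26. The paralogs differed in spread, since sites within 1 kb of each other joined into 9 chains in MACF1 and 13 in DST.

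AKAP13, an anchor of protein kinase A, had 32 sites on chromosome 15 (plus strand), 18 of them from 85578933 to 85581941 and 11 within 5 kb of its end. Between its first 20 and last 12 sites lay 87.9 kb without any. IGF1R, the receptor for insulin-like growth factors, had 29 sites on the same chromosome and strand, 22 of them from 98957067 to 98962826 within the last 10 kb. Its highest score, 60.3, was at one of the 4 sites ahead of a gap of 205 kb. TTC28 had 27 sites on chromosome 22 (minus strand), 11 of them within 2.02 kb from 27981589 to 27983610. A single site lay ahead of a gap of 466 kb in that gene.

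ADGRL2, a latrophilin adhesion receptor, had 25 sites on chromosome 1 (plus strand), 10 of them 38.4 kb or more upstream of the other 15, which lay in the last 5 kb. Its highest score was 164, at 81990904, 3.03 kb before the gene's end. MID1, a ubiquitin ligase bound to microtubules, had 24 on the X chromosome (minus strand), 18 in the last 5 kb and 5 in the last 1 kb. RANBP2, a nucleoporin of the cytoplasmic face of the pore, had 25 sites on chromosome 2 (plus strand), all within 48.1 kb, and 8 of them were listed on 2 rows. The gene table gives RANBP2 a span of 1123 kb, and its last site lies over 1000 kb from the table's gene end, so it belongs to the class by the table's span and not by where its sites lie. PCDH7, a protocadherin, had 24 sites on chromosome 4 (plus strand), of which 21 lay within 3.70 kb at the start and 3 at the end, 418 kb away.

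**Figure D2:**
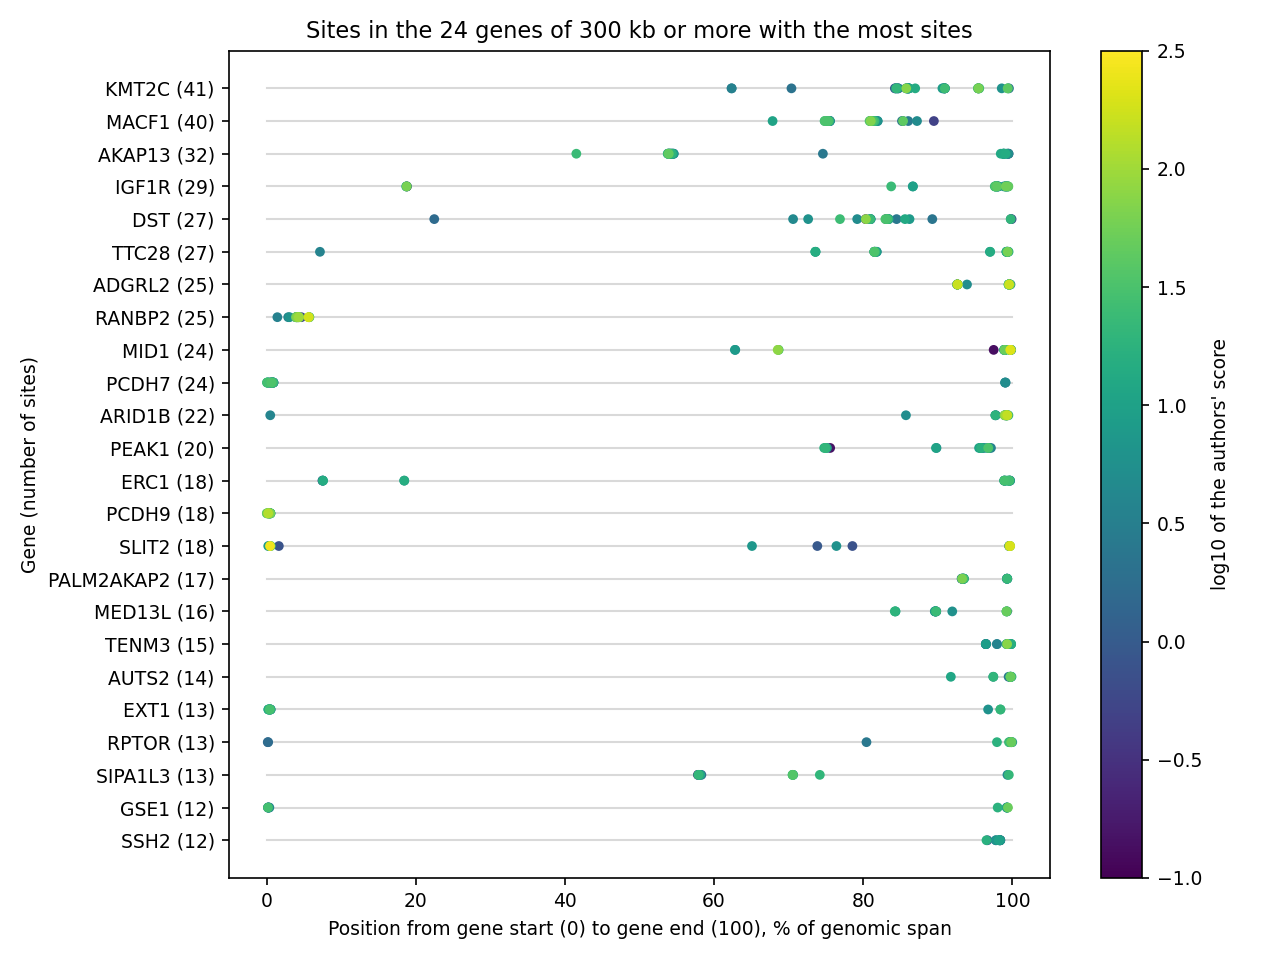
Each line is 1 of the 24 genes of 300 kb or more with the most sites, drawn from gene start to gene end as percent of its genomic span; points are sites, coloured by log10 of the authors' score. Sites of PCDH9 and RANBP2 sit only near the left edge, those of SSH2, AUTS2 and TENM3 only in the last 10% at the right, and in PCDH7, EXT1 and GSE1 they sit at both edges.

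Along these genes, the last of 10 equal parts of the span held the most sites, followed by the first and the ninth. The last part held 659 of the 1238 sites (53.2%), the first 179 (14.5%) and the ninth 155 (12.5%). Parts 2 to 8 together held 245 (19.8%). In distance, 599 sites (48.4%) lay outside both the first and the last 10 kb of their gene. In genes of 100 to 300 kb the last part held 50.5%, the first 6.55%, the ninth 9.18% and parts 2 to 8 33.8%. With every gene given the same weight, the first part held 13.8% in the longer class and 7.46% in the shorter one, and the last 58.1% and 57.0%. The ninth part then held 6.16% and 7.44%, so its larger share of sites came from genes with many sites. Without the 10 genes with most sites it held 7.94% of the sites. Without RANBP2 the first and ninth parts of the longer class held 154 and 155 sites, so their order depends on that gene. The genes whose median site lay in the first part numbered 27 of 218 (12.4%), against 6.07% of the genes of 100 to 300 kb.

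**Figure D3:**
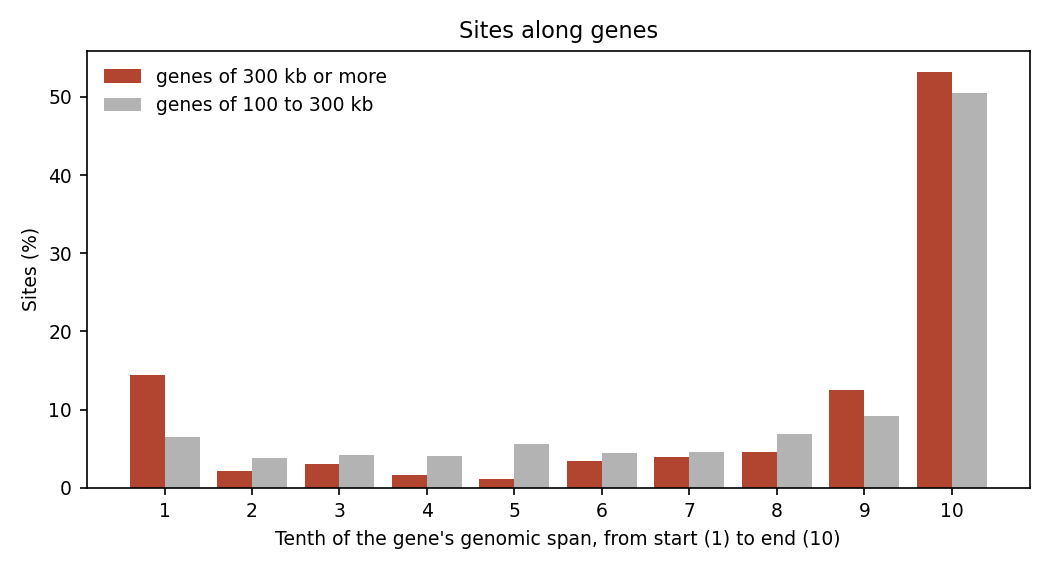
Bars give the percent of sites in each of 10 equal parts of the gene span, from start to end, for genes of 300 kb or more (red) and of 100 to 300 kb (grey). The last part holds 53.2% and 50.5%, and the first 14.5% and 6.55%.

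The first and last 1 kb of genes of 300 kb or more held 42 and 41 sites, a ratio of 0.976 for the end over the start. In genes of 100 to 300 kb they held 133 and 471, a ratio of 3.54. Over 10 kb at each end the counts were 116 and 523 in the longer class, a ratio of 4.51, and 395 and 3186 in the shorter one, a ratio of 8.07. Over 50 kb at each end they were 179 and 716, a ratio of 4.0, and 1096 and 4774, a ratio of 4.36, so the ratios of the classes lay closest in this widest window. A site in the first 1 kb was found in 19 genes (8.72%) of the longer class and 6.84% of the shorter, and a site in the last 1 kb in 25 genes (11.5%) and 20.4%. The last site lay a median of 4.75 kb from the table's gene end, against 3.20 kb in the shorter class. Which of these distances are coding sequence or untranslated region was not analysed here, and a table's gene end is that of its longest listed form.

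The sites in the first part of the span came from 46 genes, and 81 of the 179 lay in 5 genes, RANBP2 with 25, PCDH7 with 21, PCDH9 with 18, EXT1 with 10 and MAF with 7. PCDH9, another protocadherin, had all 18 of its sites within 4.64 kb at the start of a 928 kb gene on chromosome 13 (minus strand, 67225495 to 67230132). Its highest score there was 126, at 67228436, and its median 28.2. EXT1, a glycosyltransferase that builds heparan sulphate, had 10 of 13 sites within 1.02 kb at its start, followed by 305 kb with none. CDC42BPA, a kinase downstream of CDC42, had 6 of 10 sites in its first 10 kb, and GSE1 had 6 there and 6 in its last 10 kb across a gap of 495 kb. MAF, a leucine zipper transcription factor, had its 7 sites within 2.73 kb, the last of them 395 kb from the table's gene end. Like RANBP2, it belongs to the class by the table's span and not by where its sites lie. MAF and CDC42BPA were chosen for mention after their values were seen. Without RANBP2 the first part held 12.7% of the sites, and it was not recounted without MAF.

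SLIT2, the secreted guidance cue bound by ROBO receptors, had the highest score of the class at one end and a group of high scores at the other. Its 18 sites on chromosome 4 (plus strand) extended over 99.5% of the 369 kb gene. The position 20253580, 1.68 kb from the start, had a score of 270, and its neighbours at 20253740 and 20253934 had 36.2 and 28.3. In the last 5 kb lay 8 sites from 20618960 to 20619480, with scores up to 195 at 20619410, and over 100 at 3 of the 8. The 4 sites from 20491839 to 20541482, between the 2 ends, had scores of 0.766 to 7.13. The high scores of this gene thus lay near its ends, and the 4 sites between had none. Low scores were not confined to those 4, since the gene's lowest score, 0.385, was at a site near an end.

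Most neighbouring sites were within 1 kb of each other, and some were over 100 kb apart. Of 1020 distances between neighbouring sites of the same gene, 371 (36.4%) were 1 to 100 nt and 436 (42.7%) over 100 nt to 1 kb, while 79 (7.75%) were over 1 to 10 kb. A further 76 (7.45%) were over 10 to 100 kb and 58 (5.69%) over 100 kb. The median distance was 169 nt, against 157 nt in genes of 100 to 300 kb and 151 nt over all genes. Distances over 100 kb made up 2.01% in genes of 100 to 300 kb, where the gene span itself limits them.

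In the 167 genes with 2 or more sites, the outermost sites lay a median of 30.6 kb apart, or 4.29% of the span, with quartiles of 0.0935% and 47.5%. They lay under 10 kb apart in 76 genes (45.5%), and 50 genes had all of their sites in their last 10 kb and 7 in their first 10 kb. In contrast, 41 genes had outermost sites more than 50% of the span apart. In genes of 100 to 300 kb the median was 12.8 kb or 8.60% of the span, and 49.0% had outermost sites under 10 kb apart. Of the 940 genes of that class with 2 or more sites, 298 had all in their last 10 kb and 20 in their first. In 250 of the 940 the outermost sites lay more than 50% of the span apart. The median spans of the genes with a site were 423 kb in the longer class and 148 kb in the shorter.

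Among the 82 genes with 5 or more sites, the densest 10 kb held a median of 70.3% of a gene's sites, and over 50% of them in 69 genes. In genes of 100 to 300 kb the median was 80.0%, with over 50% in 442 of 525 genes, so such grouping was not particular to the longer class. Relative to gene span, the smallest extents were 5 sites within 0.299 kb in OXR1, a factor of oxidation resistance, 6 within 0.601 kb in KCNQ5, a potassium channel, and 5 within 0.502 kb in TMEM178B. AGAP1, a GTPase-activating protein for ARF, had 7 within 1.32 kb on chromosome 2 (236124348 to 236125669), and UVRAG, an autophagy factor, 5 within 0.789 kb on chromosome 11. GLI3, the Hedgehog effector, had all 10 sites within 1.37 kb on chromosome 7 and NCOA2, a nuclear receptor coactivator, all 11 within 1.01 kb. GLI3 was chosen for mention after its values were seen.

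**Figure D4:**
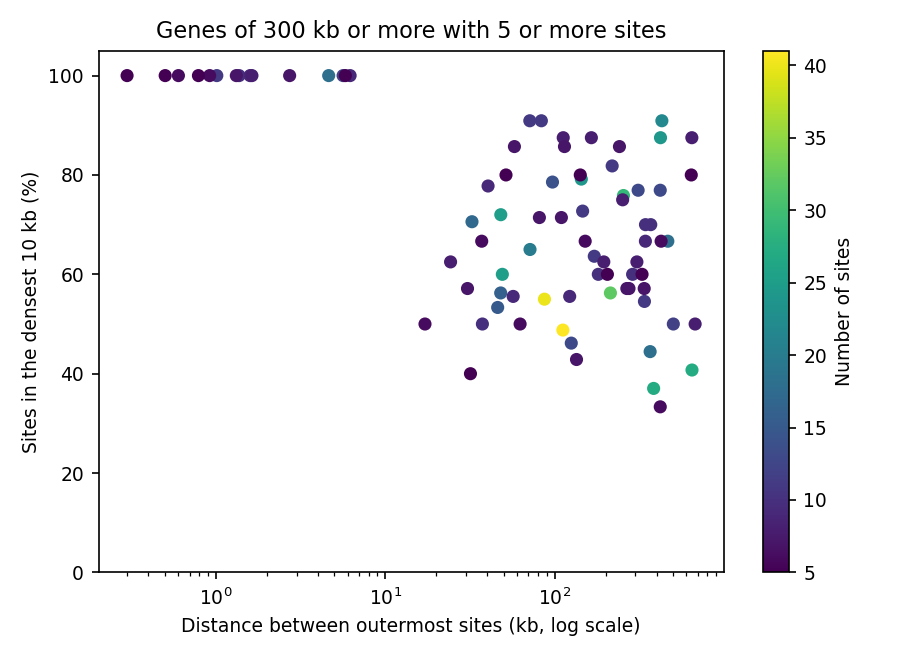
Each point is 1 of the 82 genes of 300 kb or more with 5 or more sites; the x axis gives the distance between its outermost sites in kb on a log scale, the y axis the percent of its sites in the densest 10 kb, and colour the number of sites. The points at 100% are genes whose sites all lie within 10 kb. To the right of them the densest 10 kb holds only part of a gene's sites, and over 50% of them in many genes whose outermost sites lie over 100 kb apart.

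The widest spreads were in RPTOR, PCDH7, SLIT2, GSE1 and DACH1, each with outermost sites more than 99% of the span apart. RPTOR, the scaffold of mTORC1, had 2 sites in its first 10 kb and 10 in its last 10 kb on chromosome 17, with a gap of 338 kb after the first 2. DACH1, a developmental transcription cofactor, had 1 site in its first 10 kb and 4 in its last, the highest with a score of 161 at 71440274 on chromosome 13. Sites in both the first and the last 10 kb were found in 10 of the 218 genes, and 56 genes had none in either window. In genes of 100 to 300 kb these counts were 78 and 272 of 1170.

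Sites were also set against the transcription starts that RefSeq lists for each gene. For 88 of the 218 genes 2 or more starts were listed, and 489 of their 547 sites (89.4%) lay downstream of the last one, against 93.1% in genes of 100 to 300 kb. Every site did so in 72 of the 88 genes. ADGRL2 and PDE4D, a cAMP phosphodiesterase, with 8 listed starts each, had all 25 and both of their sites downstream of the last. The exceptions included AKAP13, with 19 of 32 sites upstream of the last start, and MACF1, with 12 of 40. LRBA, a BEACH domain trafficking protein, had all 8 of its sites upstream of its last start. Splicing after the start was not considered.

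Scores in genes of 300 kb or more were slightly lower than in the whole list. The score is the authors' own, the sources used here do not state its scale, and it is used only within the list. The median was 7.39 (quartiles 3.39 and 15.5) against 8.67 (3.75 and 20.8) over all assigned sites and 7.59 in genes of 100 to 300 kb. A score of 100 or more was reached by 17 sites (1.37%), against 3.21% of all assigned sites, and 50 or more by 68 (5.49%) against 9.10%. In genes of 100 to 300 kb these shares were 1.77% and 6.04%, so fewer high scores were not particular to the longest class. Sites in the first 10 kb had a median of 8.36, those in the last 10 kb 7.46 and those between 7.14, with overlapping quartiles.

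The 17 sites with scores of 100 or more lay in 10 genes. After SLIT2 these were MID1 with 209 at 10446358 on the X chromosome, RANBP2 with 181 at 108782643 on chromosome 2, ADGRL2 with 164, DACH1 with 161 and ARID1B with 153. ARID1B, a subunit of the BAF chromatin remodeller, had 22 sites on chromosome 6, 20 of them in the last 10 kb. HS6ST2 reached 144 at 132628689, 2.67 kb from its end, while its site shown above, near the start, had 2.22. PCDH9 reached 126. MGAT5, which branches N-glycans, reached 118 and SND1, a Tudor domain nuclease, 108, at 0.225 kb from its gene end. Of these 10 highest, RANBP2, MGAT5 and SND1 were positions on 2 rows, and their lower scores were 63.7, 6.95 and 7.50.

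Positions on 2 rows were fewer in this class, 135 of 1238 (10.9%) against 14.8% of all assigned sites and 13.3% in genes of 100 to 300 kb. Their higher scores had a median of 17.2 and their lower ones 5.08. By row order the list falls into a shorter and a longer part, whose meaning is not labelled, and 101 sites (8.16%) were only in the shorter part and 1002 (80.9%) only in the longer, against 9.07% and 76.1% over all assigned sites. A neighbour within 50 nt was present for 331 sites (26.7%), against 29.7% over all.

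Most of the very longest genes had no site, as was so for most protein-coding genes of any span. Of the 10 longest protein-coding genes 1 had a site, and of the 20 longest 4. Beside these counts, 21.97% of genes of 500 kb or more, 28.3% of those of 300 kb or more and 37.2% of all had one. The counts are few and are not read as a trait of the very longest genes. PTPRD, a receptor tyrosine phosphatase spanning 2299 kb, had 2 sites 51 nt apart, at 8518245 and 8518296 on chromosome 9. RBFOX1, a splicing factor of neurons and muscle, CNTNAP2, an axonal adhesion protein, DMD, which encodes dystrophin, and DLG2, a synaptic scaffold, had 0; these unbound genes were chosen for mention by their length. Among the others of the 10 longest with a site were NRXN3, a neurexin of 1698 kb with 8 sites, 7 of them in its last 10 kb, and PDE4D with 2. CCSER1 and GALNT13, a glycosyltransferase, had 1 each, TENM3, a teneurin, 15, and GPHN, the gephyrin scaffold of inhibitory synapses, 2. AUTS2 had 14, GPC6, a glypican, 4 and ROBO1, a SLIT receptor, 6.

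Among the gene lists, the share of genes of this length with a site ranged from 0 of 18 neurotransmitter receptor genes to 9 of 19 axon guidance genes. The counts are set against 28.3% over all 769 genes of 300 kb or more, and lists were not tested. Glutamate, GABA and acetylcholine receptor genes had none in 18 of 18 cases, and 4 of 32 ion channel genes (12.5%) had one. KCNB2, a potassium channel, had 10 sites, KCNQ5 6 and ITPR2, a calcium release channel, 3. Of 25 genes of common fragile sites and tumour suppressors 2 (8.0%) had one, EXOC4, an exocyst subunit, with 2 sites and CCSER1 with 1. Extracellular matrix and heparan sulphate genes had one in 5 of 31 (16.1%), led by EXT1 with 13 and the glypicans GPC3 and GPC6 with 4 each.

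Axon guidance genes had a site in 9 of 19 cases (47.4%). SLIT2 led with 18, and its receptor gene ROBO1 had 6 with scores up to 54.9. SEMA6D, a semaphorin, had 4 within 0.368 kb. Of the synaptic adhesion and scaffold genes 13 of 42 (31.0%) had a site, with ADGRL2 at 25, TENM3 at 15 and NLGN1, a neuroligin, at 8. Cadherin, protocadherin and catenin genes did in 3 of 14 cases (21.4%), with PCDH7 at 24, PCDH9 at 18 and FAT3 at 4, so few members carried many sites.

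The list of transcription factors, which also holds cofactors, had a site in 22 of 50 genes (44.0%). The most were 14 in AUTS2, a Polycomb-associated cofactor, and 11 each in the coactivator gene NCOA2 and the homeobox gene ZFHX3, so AUTS2 and NCOA2 do not encode sequence-specific factors. Receptor kinases and phosphatases had a site in 5 of 12 cases (41.7%), with IGF1R at 29, ROR1, a Wnt receptor, at 9 and PTPRG at 5. Intracellular kinases did in 7 of 28 (25%), with TRIO at 11 and RPS6KC1 at 8.

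Chromatin regulators had a site in 5 of 16 cases (31.2%), with KMT2C at 41, ARID1B at 22 and JMJD1C, a demethylase homologue, at 7. RNA-binding and splicing genes did in 7 of 15 (46.7%), but with a median of 1 site. The most were 7 in EIF4G3, a translation initiation scaffold, followed by 3 in FTO, the demethylase of m6A and related marks, and 3 in SND1. The 3 sites in FTO lay within 0.333 kb on chromosome 16 from 53825982 to 53826315, with a highest score of 36.8.

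Cytoskeletal linkers and motors had a site in 10 of 36 cases (27.8%), with MACF1 at 40, DST at 27 and TANC2 at 11. Genes of vesicle traffic and lipid metabolism did in 14 of 41 (34.1%), with ERC1, a scaffold of secretion sites, at 18, and LRBA and SLC8A1, a sodium-calcium exchanger, at 8 each. Ubiquitin ligases and deubiquitinases did in 4 of 11 (36.4%), where MID1 had 24 and NEDD4L and RNF150 had 2 each. Phosphodiesterases and kinase anchors did in 2 of 12 (16.7%), AKAP13 with 32 and PDE4D with 2.

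**Figure D5:**
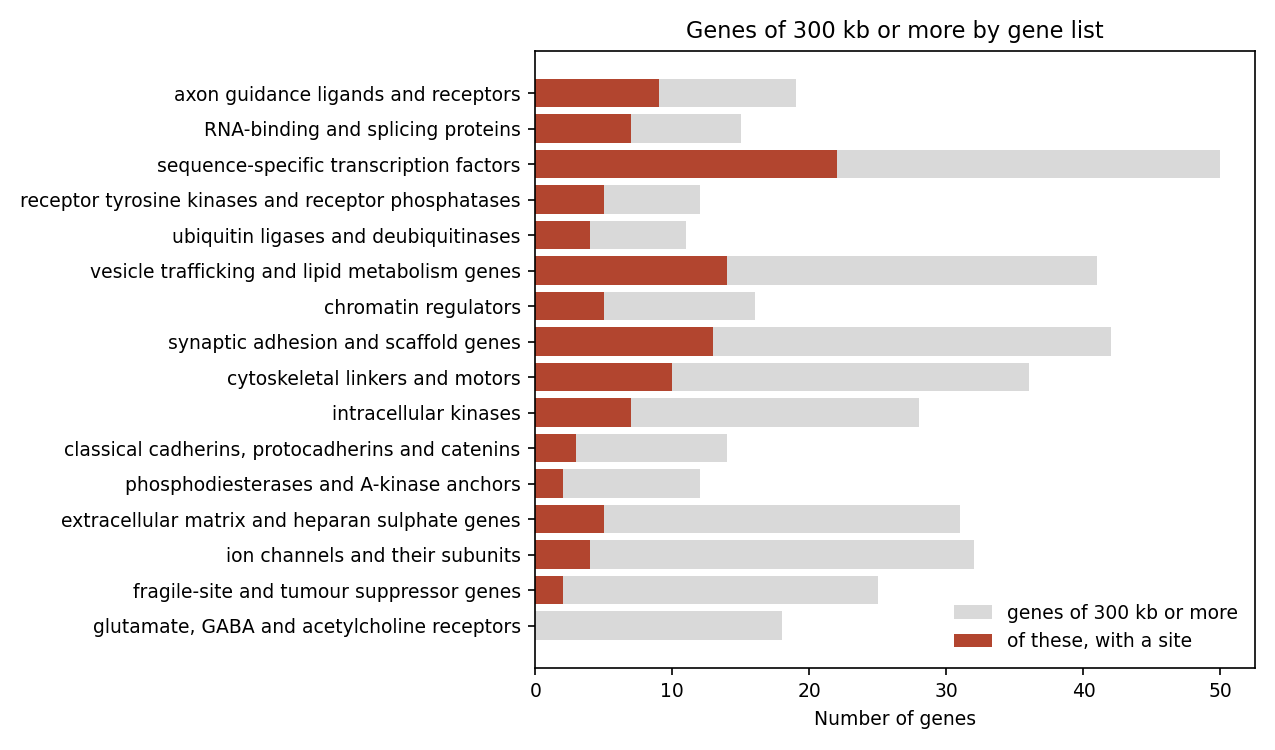
Grey bars give the number of genes of 300 kb or more in each gene list described here and red bars those with 1 or more YTHDF2 sites, ordered by the share with a site. Axon guidance genes are at the top with 9 of 19, and neurotransmitter receptor genes at the bottom with 0 of 18.

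Short lists of cell type markers were also read over genes of any length. Of 8 haematopoietic genes 0 had a site, of 8 kidney-lineage genes 4 had one and of 8 neuronal genes 3, beside 37.2% of all genes, so these counts do not separate kidney from neuronal markers. Sites give no level of expression. Some positions lie where another, noncoding gene is annotated, 73 of 1238. The share over all assigned sites is not given here, so this count is not read as high or low. For 63 of them that gene lies on the opposite strand, for 10 its strand is not listed, and for 0 it is listed on the same strand. The most were in TTC28 with 13, IQSEC1 and ZFHX3 with 10 each and SHROOM3 with 9; IQSEC1 and SHROOM3 were chosen for mention after their values were seen. A further 100 positions lay in a gene of 300 kb or more and another protein-coding gene, and were left out by the rule.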

How the data were processed

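The deposited list of binding sites gives a chromosome, a 1 nt position, a name, a score and a strand per row, with no header. The authors' score is a positive number with no stated scale. Per the submitters' processing notes the build was GRCh38.p12, and bedtools 2.27.1, FastQC 0.11.8, UMI-tools 1.0.0 and STAR 2.7.3a were used. The sources used here name no site caller and do not say how replicates were pooled.

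The 43178 rows were joined into 37613 positions, keeping the higher score. RefSeq gene spans (GRCh38.p14, whose main chromosomes are those of p12) were used without 105 readthrough genes, and none of their coordinates is printed. Strand came from RefSeq's table of starts for 178 of the 218 genes, where it was that of most sites in all 178, and from most sites for 40. Bases came from the 35116 windows of that table. No exon annotation was used here. Results for 1 gene and 1 gene list are not reported here.

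Members and lists were chosen with earlier results of these data known. Named genes were the 10 with most sites, highest score or longest span, the 5 with smallest and largest extent, up to 3 per list, and those nearest the limit. Some alternatives were added after seeing the data. The steps were tested on simulated data. Computation used Python 3.11.15, pandas 2.3.3, numpy 2.4.6 and scipy 1.17.1.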

Additional observations from a re-analysis of the deposited data

How the results depend on the processing

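The site count and the share of genes with a site both moved with the span limit; a higher limit keeps fewer genes, and the cause of the change in share was not tested. At 200 kb or more there were 2697 sites and 34.2% of genes had one, and at 500 kb or more 374 sites and 21.97%. With sites at or above the median score there were 553 sites, and 20.2% of the 769 genes had one. Of these sites 16.5% had a neighbour within 50 nt and 17.9% were on 2 rows. Neighbours were sought only among the positions kept, and positions on 2 rows entered by their higher score. Both shares therefore depend on the cut itself and are not read as properties of high-scoring sites. Genes with 3 or more sites had a median extent of 15.1% of the span in place of 4.29%. The median score was 8.10 with sites within 50 nt merged and 6.4 with the lower of 2 scores. Without the 10 genes with most sites, 46.0% of sites lay in the last 10 kb in place of 42.2%. Of 52 alternative values the other 40 stayed within a 95% interval of the value reported, or within 1.5 times of a reported count. The intervals were binomial for shares and ratios and rank-based for medians. They take sites or genes as independent, though sites group within genes, and the alternatives share sites with the reported set. A value inside its interval is therefore only a description. No paired analysis was possible because the list holds no value for a single library. Depth per site is unknown.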
